A study of Mus musculus with 15 samples.

Results

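Wnt proteins are secreted, lipid-modified signals that bind Frizzled receptors together with the co-receptors Lrp5 or Lrp6, which stabilises beta-catenin, or that act through Frizzled and other receptors on cell polarity without beta-catenin. Secreted antagonists of the Dkk and Sfrp families block the co-receptors or bind Wnts, and the ligases Znrf3 and Rnf43 remove Frizzled from the cell surface unless R-spondins, bound to Lgr receptors, stop them. In the cornea the pathway is known for its part in the limbal stem cell niche and in keeping the surface epithelium corneal. Mice that lack Dkk2 form skin-like epithelium with hair follicles in place of corneal epithelium. The 51 genes named Wnt, Fzd, Dkk1 to Dkk4, Sfrp1 to Sfrp5, Rspo or Lgr4 to Lgr6, or called Lrp5, Lrp6, Axin1, Axin2, Wif1, Znrf3 or Rnf43, were looked up among 55357 genes, and the 31 with at least 10 counts in at least 3 of 15 libraries are described here. The same count minimum was met by 15958 genes in all.

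RNA sequencing was done on corneas of OPA1+/- mice at 6 months (4 libraries) and 3 months (4 libraries), and of OPA1+/+ mice at 6 months (3 libraries) and 3 months (4 libraries). Opa1 encodes a GTPase that fuses inner mitochondrial membranes, and the study concerned how its heterozygous mutation bears on corneal nerves. The labels name no mutant allele, strain, sex, time of dissection or batch, and they do not say whether each library came from a separate animal, so p-values measure the spread between these libraries.

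As a check of the labels, Opa1 itself was lower in OPA1+/- than in OPA1+/+ corneas. Its 3 months levels were 57.7, 49.98, 45.4 and 50.4 CPM (counts scaled to 1e6 per library) in OPA1+/- corneas, against 70.2, 65.1, 69.0 and 66.4 CPM in OPA1+/+ corneas, with a log2 fold change of -0.41 ± 0.06 (SE) and an adjusted p of 0.0192. Its 6 months levels were 47.0, 49.1, 46.9 and 48.4 CPM in OPA1+/- corneas, against 67.4, 66.8 and 73.3 CPM in OPA1+/+ corneas, with -0.53 ± 0.06 and an adjusted p of 0.000622. Groups did not overlap, and exact two-sided permutation tests gave p = 0.0286 for 3 months and p = 0.0571 for 6 months, the lowest values that groups of these sizes allow. The 3 months call ended when OPA1+/+ replicate 1 was left out (adjusted p = 0.141) or without OPA1+/- replicate 2 (0.0618), 3 (0.0907) or 4 (0.0666). Adjusted p-values here and below come from edgeR's quasi-likelihood test with Benjamini-Hochberg adjustment over the 15770 genes tested, with a threshold of 0.05, and errors after log2 fold changes are SE.

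Libraries held 11673240 to 18194946 counts, and Krt12, the keratin of corneal epithelium, was at 26070 to 32860 CPM in the 15 libraries. A pair of libraries stood apart by retina transcripts: 10 retina markers summed to 168.8 CPM in OPA1+/- at 3 months, replicate 4, and 163.2 CPM in OPA1+/+ at 6 months, replicate 1, while the other libraries had 12.4 to 27.9 CPM. An index of clock genes (mean log2 CPM of Dbp, Tef, Per3, Nr1d2 and Ciart minus that of Bmal1, Npas2, Clock and Nfil3) was 3.18 to 3.86 in OPA1+/- at 6 months, 3.11 to 3.52 in OPA1+/- at 3 months, 1.96 to 2.18 in OPA1+/+ at 6 months and 2.79 to 3.62 in OPA1+/+ at 3 months. The 3 OPA1+/+ libraries at 6 months thus lay below the rest, and no label gives a time of day. Any comparison that uses that group carries this difference, and its part in the results was tested only as a covariate whose values are given where they change a call or a direction. Because the index nearly coincides with that group, the covariate cannot separate index from group, and SE can rise in comparisons that use the group.

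Of the 51 genes looked up, 31 met the count minimum, as did 15958 of all 55357 genes. Of 19 Wnt ligands 10 met the count minimum, as did 9 of 10 Frizzled receptors, both co-receptors, 1 of 3 Lgr receptors (Lgr4), 5 of 9 secreted inhibitors, and all 4 of Axin1, Axin2, Znrf3 and Rnf43. None of the 4 R-spondins did, and their highest count in any library was 7 (Rspo1). Among ligands, Wnt1 and Wnt8b had no count in any library, where 3 counts, taken as the limit that a count of 0 allows, equal 0.165 to 0.257 CPM. Wnt7a, a ligand linked to corneal epithelial fate in human limbal cells, reached at most 2 counts in a library. Lgr5 and Lgr6, R-spondin receptors of epithelial stem cells elsewhere, reached 7 and 10 counts. Nearest to the minimum were Sfrp2, with 5 to 20 counts and at least 10 in 7 libraries, and Wif1, with 2 to 15 counts and at least 10 in 1 library. All 31 genes that met the minimum also passed edgeR's filter and were tested, and none shares exon bases with another gene on its strand in the reference annotation.

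Inhibitors and a few ligands and receptors held most of the signal. Expressed per kilobase of exon so that genes can be compared, Dkk3, a divergent Dickkopf protein whose action on Wnt signalling is not settled, was at 117.8 ± 13.3 CPM per kilobase (SD, n = 15), with a range of 91.4 to 139. Next were Wnt4 (54.2 ± 3.49), Sfrp1, which binds Wnts outside the cell (47.1 ± 5.43), Fzd6, a receptor known for tissue polarity (34.4 ± 1.77), and Wnt7b, a ligand of the beta-catenin branch (27.7 ± 2.60). These 5 kept the same places in each of the 4 groups. At the low end were Wnt5b (0.913 ± 0.207), Sfrp2 (0.354 ± 0.124) and Fzd3 (0.330 ± 0.0553). Between neighbours in this order the ranges over 15 libraries were separate only after Dkk3, Sfrp1, Wnt7b, Wnt6 and Wnt5b, so most neighbouring places in the order are within the spread.

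**Figure D1:**
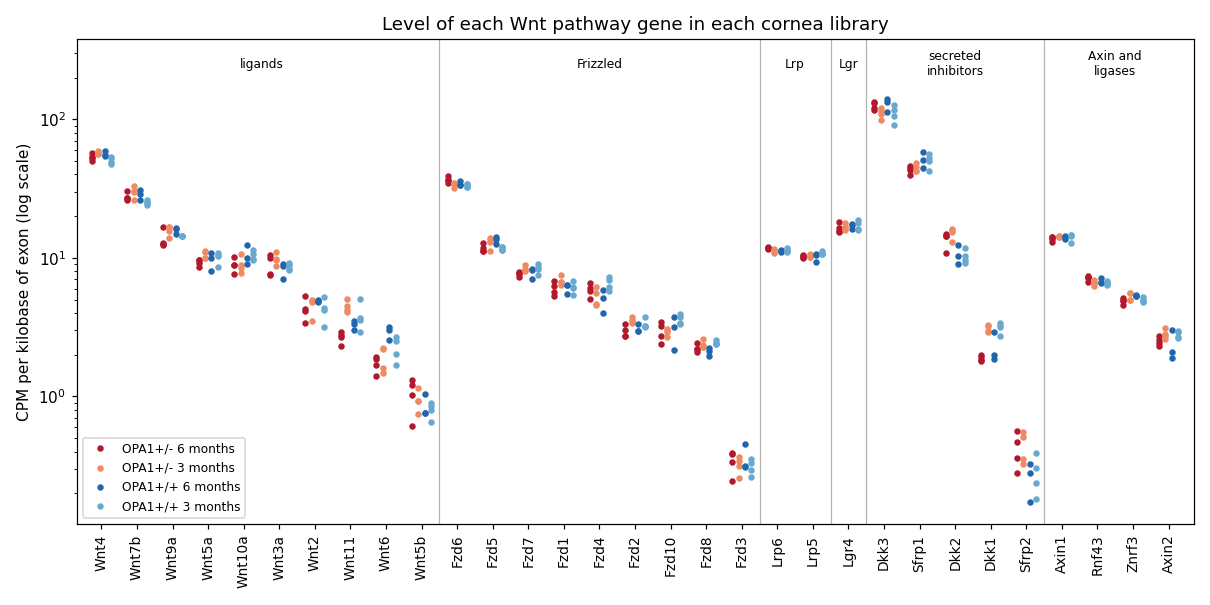
Level of each of the 31 genes in each cornea library, in CPM per kilobase of exon on a log axis, by role; each point is 1 library, coloured by group. Dkk3, Wnt4, Sfrp1, Fzd6 and Wnt7b lie highest, and the 4 groups lie close together for most genes.

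Wnt4 supplied 39.8 ± 1.35% of the summed ligand level per kilobase and Wnt7b 20.3 ± 1.11% (SD, n = 15), and together with Wnt9a, known from joint and blood development, and Wnt10a, known from teeth and skin appendages, they made up 78.1 ± 1.33%. The remaining ligands were Wnt5a (9.89 ± 0.938 CPM per kilobase), which signals mainly without beta-catenin, Wnt3a (8.92 ± 1.12), a strong activator of beta-catenin, Wnt2 (4.45 ± 0.665), Wnt11 (3.56 ± 0.843), Wnt6 (2.13 ± 0.551) and Wnt5b. Fzd6 supplied 45.4 ± 1.90% of the Frizzled sum and, with Fzd5, a receptor of eye development, 61.7 ± 2.17%. Fzd7 (8.08 ± 0.559), Fzd1 (6.27 ± 0.601), Fzd4 (5.70 ± 0.893), Fzd2 (3.24 ± 0.321), Fzd10 (3.13 ± 0.504) and Fzd8 (2.30 ± 0.173) followed.

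Lrp6 and Lrp5 were nearly level, at 11.4 ± 0.350 and 10.4 ± 0.447 CPM per kilobase, and Lgr4 was at 16.8 ± 0.979. Dkk3 and Sfrp1 together made up 91.4 ± 1.67% of the secreted inhibitors. Dkk2 followed at 12.5 ± 2.51 and Dkk1, the Dickkopf that blocks Lrp5 and Lrp6 with Kremen receptors, at 2.62 ± 0.633. Axin1, a scaffold of the beta-catenin destruction complex, was at 14.01 ± 0.536, while its relative Axin2, whose gene is a feedback target of beta-catenin, was at 2.63 ± 0.343. Rnf43 and Znrf3 were at 6.77 ± 0.349 and 5.11 ± 0.289.

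How much a gene varied between libraries differed by gene. The coefficient of variation over 15 libraries was 3.06% for Lrp6, 3.82% for Axin1 and 4.29% for Lrp5, against 20.1% for Dkk2, 23.7% for Wnt11, 24.2% for Dkk1, 25.8% for Wnt6 and 35.1% for Sfrp2. These values span all 4 groups. Counting alone would give 3.98% for Dkk2, 7.09% for Wnt11, 10.8% for Dkk1, 12.6% for Wnt6 and 30.9% for Sfrp2.

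The comparison of ages asked which of these genes differed between 6 and 3 months. Dkk1 and Wnt11 were the members that passed, and both were lower at 6 months. The promoters of both genes are shown because both passed with age in OPA1+/- corneas. They are the 250 bases before the RefSeq start on GRCm38.p6, Dkk1 at chr19:30549497-30549746 on the minus strand and Wnt11 at chr7:98834862-98835111 on the plus strand, the first of its pair of listed starts. Capitals mark TCAAAG or its reverse complement CTTTGA, the core letters bound by TCF and LEF factors.
Dkk1: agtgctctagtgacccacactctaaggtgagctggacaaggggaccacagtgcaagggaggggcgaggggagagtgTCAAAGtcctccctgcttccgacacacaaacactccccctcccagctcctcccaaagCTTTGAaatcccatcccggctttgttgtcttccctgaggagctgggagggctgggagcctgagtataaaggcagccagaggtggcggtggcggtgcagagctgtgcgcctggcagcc
Wnt11: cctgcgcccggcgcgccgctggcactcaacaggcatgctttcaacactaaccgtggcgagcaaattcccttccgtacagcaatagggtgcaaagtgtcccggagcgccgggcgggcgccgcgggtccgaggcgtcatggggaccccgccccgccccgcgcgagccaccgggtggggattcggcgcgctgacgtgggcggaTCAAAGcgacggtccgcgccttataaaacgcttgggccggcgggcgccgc
The letters TCAAAG, on either strand, stand in 13.8% of 32851 such windows over all genes and in 4 of 22 windows of the 18 members with an entry, those of Dkk1, Fzd1, Wnt11 and Wnt5b. The window at the other listed start of Wnt11 has no match. These matches describe the letters and were not tested for binding.

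In OPA1+/- corneas, 2 of 31 members fell at 6 months and none rose, while 0.0824% of all tested genes were called, 0.019% higher and 0.0634% lower. At an unadjusted p under 0.05, 2 members were higher and 6 lower, against 9.06% of all genes, 4.08% higher and 4.97% lower. Dkk1 was at 4.81, 4.45, 4.66 and 4.37 CPM at 6 months, against 7.96, 7.18, 7.04 and 7.78 CPM at 3 months. Its age groups did not overlap, and it fell with a log2 fold change of -0.71 ± 0.13 (edgeR adjusted p = 0.0456). Wnt11, a ligand known from kidney branching and from cell movements that need no beta-catenin, was at 11.1, 11.5, 12.1 and 9.53 CPM at 6 months, against 18.4, 17.3, 20.9 and 16.9 CPM at 3 months. These groups were separate as well, and it fell with -0.73 ± 0.13 (edgeR adjusted p = 0.0428). Since the tissue was sequenced in bulk, fewer cells of a type and less RNA per cell cannot be told apart here or in later results.

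Both calls in OPA1+/- lie close to the threshold. With 1 library left out, the log2 fold change stayed at -0.74 to -0.68 for Dkk1 and -0.77 to -0.66 for Wnt11. Both calls were lost when any 1 of the 8 OPA1+/- libraries was left out, and also without OPA1+/+ at 3 months replicate 1 or 2, or without OPA1+/+ at 6 months replicate 2, with adjusted p up to 0.174 for Dkk1 and 0.164 for Wnt11. Without both libraries with retina transcripts, Dkk1 had -0.69 ± 0.12 (adjusted p = 0.0582) and Wnt11 -0.77 ± 0.14 (adjusted p = 0.0662). With the clock index as a covariate Dkk1 had -0.72 ± 0.14 (adjusted p = 0.0665), which ended its call, and Wnt11 -0.76 ± 0.13 (adjusted p = 0.0498).

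In OPA1+/+ corneas none of the 31 members passed between 6 and 3 months, while 0.0507% of all genes did. At an unadjusted p under 0.05, 4 members were higher and 4 lower, against 10.2% of all genes, 5.32% higher and 4.84% lower, and DESeq2 and limma voom called none. Dkk1 was at 7.07, 4.55 and 4.81 CPM at 6 months, against 7.75, 6.60, 8.25 and 8.00 CPM at 3 months, so that replicate 1 at 6 months stood among the younger libraries and the others below them. Its log2 fold change was -0.48 ± 0.14 (adjusted p = 0.208), and -0.71 ± 0.14 (adjusted p = 0.0245) without that replicate, which is one of the libraries with retina transcripts. Wnt11 was at 12.5, 14.4 and 13.8 CPM at 6 months, against 15.2, 14.8, 12.02 and 20.8 CPM at 3 months, and these overlap (-0.21 ± 0.14, adjusted p = 0.665).

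The age effects were not shown to differ between genotypes: the interaction, which is the age effect in OPA1+/- minus that in OPA1+/+ and equally the genotype effect at 6 months minus that at 3 months, was -0.23 ± 0.19 for Dkk1 (adjusted p = 0.866) and -0.52 ± 0.19 for Wnt11 (unadjusted p = 0.0119, adjusted p = 0.603). The Dkk1 interaction was -0.35 to -0.0067 with 1 library left out and turned to 0.017 without both libraries with retina transcripts. Averaged over both genotypes, a comparison added after the age results were seen and made of the same libraries, Dkk1 fell, with a log2 fold change of -0.60 ± 0.10 (adjusted p = 0.00786), as did Wnt11, with -0.47 ± 0.09 (adjusted p = 0.0364). These were 2 of 31 members, both lower, while 0.412% of all genes were called and 0.266% called lower. Dkk1 passed in each of the 15 fits that left out 1 library (adjusted p 0.000808 to 0.038). Wnt11 was lost in 8 of them (adjusted p up to 0.119), those without OPA1+/- at 6 months replicate 1, 2 or 4, OPA1+/- at 3 months replicate 1 or 3, OPA1+/+ at 6 months replicate 2 or 3, or OPA1+/+ at 3 months replicate 2. Without both libraries with retina transcripts the values were -0.70 ± 0.10 for Dkk1 (adjusted p = 0.00293) and -0.46 ± 0.11 for Wnt11 (adjusted p = 0.0363). With the clock index as a covariate they were -0.57 ± 0.14 for Dkk1 (adjusted p = 0.292) and -0.36 ± 0.13 for Wnt11 (adjusted p = 0.524). Of all 15770 genes, 1 passed in that fit.

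**Figure D2:**
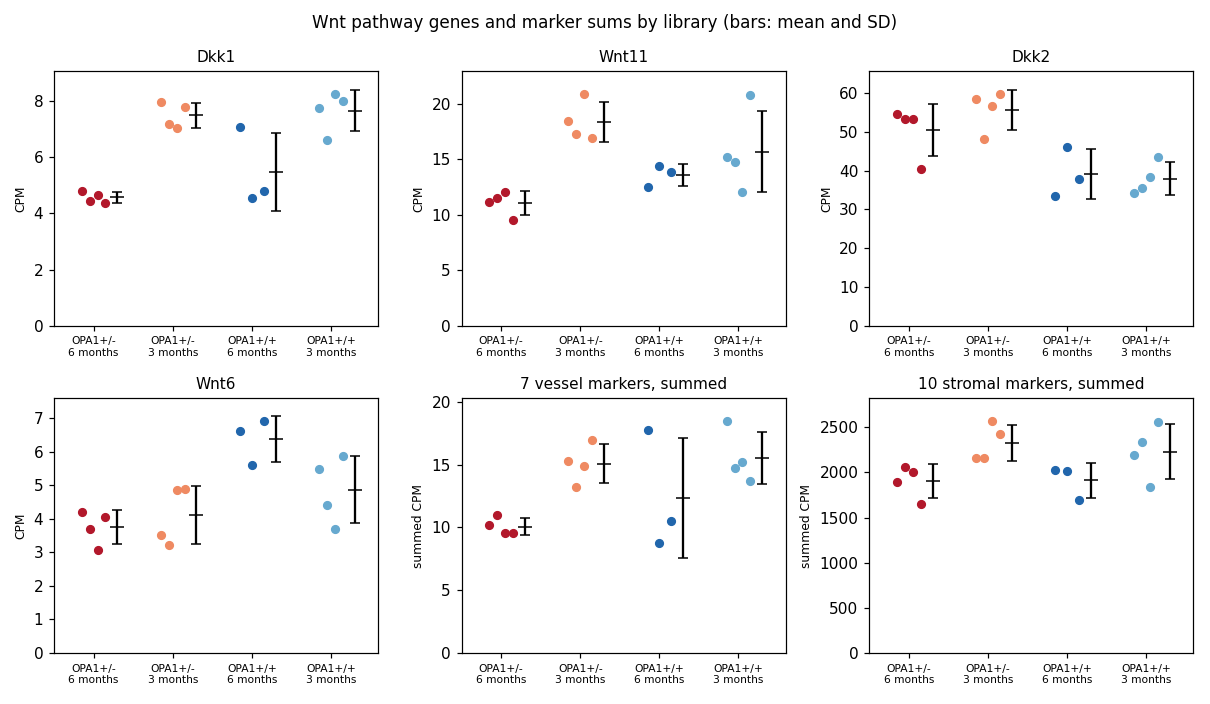
CPM by library of Dkk1, Wnt11, Dkk2 and Wnt6, and summed CPM of 7 vessel markers and 10 stromal markers, by group; points are libraries, and the bars beside them give the mean and SD. Dkk1 at 6 months lies below the 3 months libraries except for 1 OPA1+/+ library at 7.07 CPM, and that library has the highest vessel sum of its age, at 17.8 CPM.

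Some marker lists of other cells differed with age in OPA1+/-, and others overlapped between ages. There, corneal endothelium markers summed to 752 to 875 CPM at 6 months and 739.9 to 826 CPM at 3 months. Leukocyte markers summed to 33.1 to 42.5 CPM at 6 months and 29.2 to 40.3 CPM at 3 months. Limbus and conjunctiva markers summed to 638.5 to 1046 CPM at 6 months and 690.1 to 1439 CPM at 3 months. These lists overlapped. A list of 7 vessel markers summed to 9.53 to 10.98 CPM at 6 months and 13.2 to 16.9 CPM at 3 months in OPA1+/-, and to 17.8, 8.80 and 10.5 CPM at 6 months and 13.7 to 18.5 CPM at 3 months in OPA1+/+. The OPA1+/+ library at 17.8 CPM is the same replicate 1 in which Dkk1 was at 7.07 CPM. That library also had 1532 CPM of limbus and conjunctiva markers, against 688.6 and 851.9 CPM in the others of its group. Of the 4 vessel markers tested, Kdr, a receptor for vascular endothelial growth factor, passed in the averaged age comparison (-0.52 ± 0.11, adjusted p = 0.0387) and made up most of the sum, at 5.44 to 12.8 CPM. The Kdr call was not followed in the alternative runs or with libraries left out. With the clock index as a covariate, 1 of all 15770 genes passed in that comparison. The defining vessel markers Cdh5, Pecam1 and Tek were at most 0.978, 1.35 and 0.527 CPM, Cdh5 was at 0 in 1 library and Tek in 3, and no marker of the list was at 0 in all 15.

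The 10 stromal markers summed to 1647 to 2065 CPM at 6 months and 2159 to 2568 CPM at 3 months in OPA1+/-, without overlap, and to 1693 to 2023 CPM at 6 months and 1837 to 2558 CPM at 3 months in OPA1+/+. In the averaged age comparison none of them passed, 9 of 10 were lower and 6 of these had an unadjusted p under 0.05. Schwann cell markers, a list of 8, summed to 441 to 494 CPM at 6 months and 502 to 540 CPM at 3 months in OPA1+/-, and to 508 to 522 CPM at 6 months and 496 to 576 CPM at 3 months in OPA1+/+. The 11 lens markers summed to 43.0 to 48.5 CPM at 6 months and 56.4 to 173.6 CPM at 3 months in OPA1+/-, without overlap. The sum of 173.6 CPM is that of replicate 4, a library with retina transcripts, and the others at 3 months had 56.4 to 80.4 CPM. In OPA1+/+ the lens markers summed to 48.2 to 50.2 CPM at 6 months and 38.6 to 74.9 CPM at 3 months. Cryab supplied 31.3 to 63.1 CPM of it, Lim2 was at 0 in all 15 libraries and Mip in 8. In OPA1+/- none of the 9 lens markers tested passed with age, and all 9 were lower at 6 months, 8 of them with an unadjusted p under 0.05. The part of these cell types in the change of Dkk1 and Wnt11 was not tested.

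Other members did not pass with age. Dkk3 had a log2 fold change of 0.20 ± 0.07 averaged over genotypes (adjusted p = 0.263) and Fzd2, a receptor used in both branches, -0.19 ± 0.07 (adjusted p = 0.229). Axin2 was at 15.04, 13.3, 14.1 and 12.7 CPM in OPA1+/- at 6 months, against 15.5, 15.1, 17.3 and 14.4 CPM in OPA1+/- at 3 months. In OPA1+/+ it was at 11.5, 16.5 and 10.4 CPM at 6 months, against 15.9, 14.4, 14.9 and 16.4 CPM at 3 months. Age groups overlapped in both genotypes, and its averaged log2 fold change was -0.22 ± 0.08 (unadjusted p = 0.0168, adjusted p = 0.286).

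Receptors and ligases with the smallest p in OPA1+/- were Fzd2 (-0.27 ± 0.09, adjusted p = 0.334), Fzd6 (0.12 ± 0.04, adjusted p = 0.418) and Rnf43 (0.12 ± 0.05, adjusted p = 0.501). Fzd2 groups did not overlap, at 12.1, 10.1, 9.97 and 11.1 CPM at 6 months and 13.1, 12.4, 13.7 and 12.9 CPM at 3 months. Age groups were separate for 6 of 31 members in OPA1+/- (1 above, 5 below at 6 months), against 6.04% of all genes, 2.9% above and 3.14% below. In OPA1+/+ they were separate for 6 members (5 above, 1 below), against 8.14% of all genes, 4.44% above and 3.7% below. Co-receptors and scaffold stayed within small differences that did not pass: Lrp6 had 0.07 ± 0.04 and Axin1 -0.05 ± 0.05 in OPA1+/-, and Lrp5 -0.09 ± 0.05 in OPA1+/+.

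**Figure D3:**
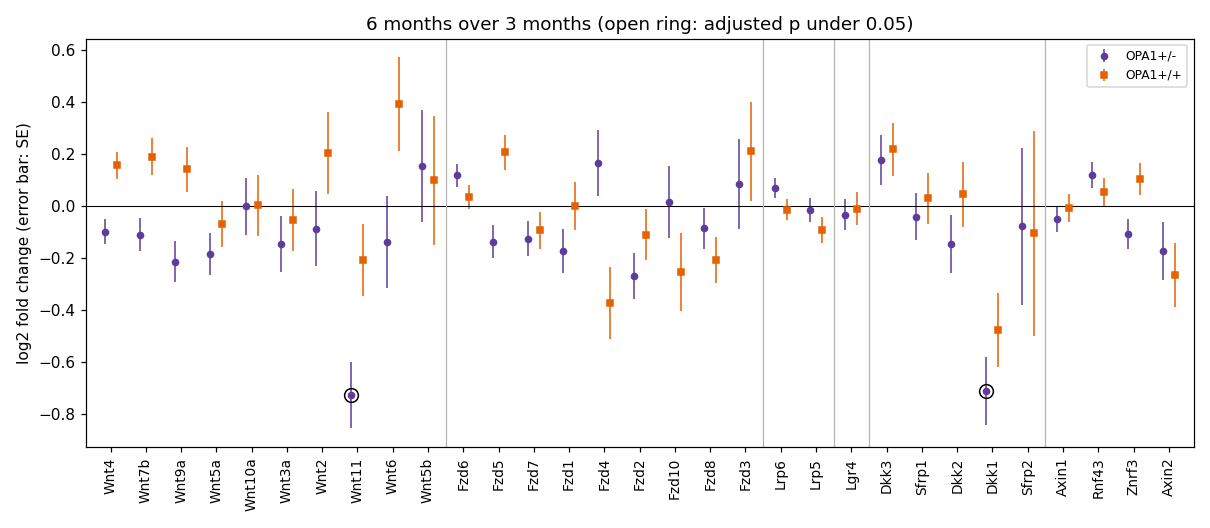
Log2 fold change of 6 over 3 months for each of the 31 genes in OPA1+/- and OPA1+/+ corneas; bars are SE and open rings mark an adjusted p under 0.05. Wnt11 at -0.73 and Dkk1 at -0.71, both in OPA1+/-, are the ringed points.

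The comparison of genotypes asked which members differed between OPA1+/- and OPA1+/+ corneas. Dkk2, the Dickkopf needed for corneal fate of the surface epithelium, was the 1 member that passed, and only when both ages were averaged. Its promoter window, chr3:132085042-132085291 on the plus strand of GRCm38.p6, the 250 bases before the RefSeq start, is shown because of that call. It has no TCAAAG on either strand. Most windows have none, since 13.8% of such windows over all genes hold these letters.
Dkk2: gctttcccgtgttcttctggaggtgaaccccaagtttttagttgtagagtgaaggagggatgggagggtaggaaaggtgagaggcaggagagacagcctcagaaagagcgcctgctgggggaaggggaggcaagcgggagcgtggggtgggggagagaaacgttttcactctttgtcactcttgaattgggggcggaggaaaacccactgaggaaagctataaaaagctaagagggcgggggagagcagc

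At 3 months Dkk2 was at 58.4, 48.2, 56.6 and 59.8 CPM in OPA1+/- corneas, against 34.2, 35.5, 38.4 and 43.6 CPM in OPA1+/+ corneas. Groups did not overlap, the log2 fold change was 0.56 ± 0.12 (unadjusted p = 0.000237), and the edgeR adjusted p was 0.208, while DESeq2 gave an adjusted p of 0.00265. At 6 months it was at 54.6, 53.3, 53.4 and 40.45 CPM in OPA1+/- corneas, against 33.4, 46.1 and 37.9 CPM in OPA1+/+ corneas. Here replicate 4 of OPA1+/- fell among the OPA1+/+ values, and the log2 fold change was 0.37 ± 0.13 (adjusted p = 0.290).

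Averaged over both ages, Dkk2 was 1.38-fold higher in OPA1+/- (log2 fold change 0.46 ± 0.09, edgeR adjusted p = 0.0263), higher than every OPA1+/+ library in 7 of 8 OPA1+/- libraries. That made 1 of 31 members called, higher, while 0.793% of all genes were called and 0.399% called higher. The call was lost in 5 of 15 fits that left out 1 library (adjusted p 0.0577 to 0.0747), those without OPA1+/- at 6 months replicate 1 or 3, OPA1+/- at 3 months replicate 1, OPA1+/+ at 6 months replicate 1 or OPA1+/+ at 3 months replicate 2. It was also lost without both libraries with retina transcripts (0.39 ± 0.09, adjusted p = 0.117) and with the clock index as a covariate (0.45 ± 0.17, adjusted p = 1.00). With that covariate, 0 of 15770 genes passed in the averaged genotype comparison. Age did not pass for Dkk2 in OPA1+/- (-0.15 ± 0.11) or OPA1+/+ (0.05 ± 0.13), nor did the interaction (-0.19 ± 0.17, adjusted p = 0.879).

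No member passed at 3 months, where 0.00634% of all genes did, which is 1 gene, Opa1 itself. At an unadjusted p under 0.05, 4 members were higher and 2 lower, against 9.03% of all genes, 5.03% higher and 3.99% lower. DESeq2 called Dkk2 and limma voom called none. After Dkk2, the smallest p were those of both leading ligands and of Fzd4, the receptor of the vascular ligand Norrin. Wnt7b was at 147, 127, 161 and 148 CPM in OPA1+/-, against 118, 123, 122 and 127 CPM in OPA1+/+ (0.25 ± 0.06, adjusted p = 0.228), with a single value of each genotype meeting at 127 CPM. Wnt4 was at 234, 239, 235 and 246 CPM in OPA1+/-, against 206, 198, 224 and 222 CPM in OPA1+/+ (0.17 ± 0.05, adjusted p = 0.295), without overlap. Fzd4 was at 41.6, 37.4, 31.2 and 30.5 CPM in OPA1+/-, against 46.4, 48.6, 38.6 and 41.3 CPM in OPA1+/+, which overlap (-0.32 ± 0.13, adjusted p = 0.479). Groups at 3 months were separate for 3 of 31 members, 2 higher and 1 lower in OPA1+/-, against 4.6% of all genes, 2.65% higher and 1.95% lower.

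No member passed at 6 months either, where 0.323% of all genes did. At an unadjusted p under 0.05, 1 member was higher and 4 lower, against 10.2% of all genes, 4.8% higher and 5.43% lower. DESeq2 called Wnt6 and limma voom called none. Wnt6, a ligand known from kidney tubule formation, was at 4.21, 3.69, 3.08 and 4.06 CPM in OPA1+/- corneas, against 6.62, 5.59 and 6.91 CPM in OPA1+/+ corneas. These did not overlap, and the log2 fold change was -0.76 ± 0.18 (unadjusted p = 0.000506, edgeR adjusted p = 0.0896, DESeq2 adjusted p = 0.0286). With the clock index as a covariate, Wnt6 at 6 months had -0.54 ± 0.43 (edgeR unadjusted p = 0.223). Without both libraries with retina transcripts it had -0.73 ± 0.21 (edgeR adjusted p = 0.206). At 3 months the groups overlapped, at 3.51, 3.21, 4.85 and 4.88 CPM in OPA1+/-, against 5.48, 4.42, 3.69 and 5.87 CPM in OPA1+/+, and the averaged log2 fold change was -0.50 ± 0.13 (adjusted p = 0.0675). The averaged value was -0.37 ± 0.25 with the clock index as a covariate.

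Wnt9a at 6 months was at 55.2, 41.4, 42.0 and 42.4 CPM in OPA1+/-, against 49.5, 53.7 and 54.8 CPM in OPA1+/+. Replicate 1 of OPA1+/- stood above the OPA1+/+ values and the others below, with -0.22 ± 0.09 (adjusted p = 0.372), and -0.33 ± 0.07 (adjusted p = 0.0484) without that replicate. With the clock index as a covariate the sign turned, at 0.057 ± 0.19. Groups at 6 months were separate for 4 of 31 members, 1 higher and 3 lower in OPA1+/-, against 11.3% of all genes, 5.71% higher and 5.62% lower. Averaged over ages, Sfrp1 had -0.20 ± 0.07 (adjusted p = 0.208) and Wnt10a -0.23 ± 0.08 (adjusted p = 0.221), and Lgr4 had -0.04 ± 0.04 (adjusted p = 0.770). With the clock index as a covariate, the sign of Sfrp1 turned as well, at 0.024 ± 0.12.

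**Figure D4:**
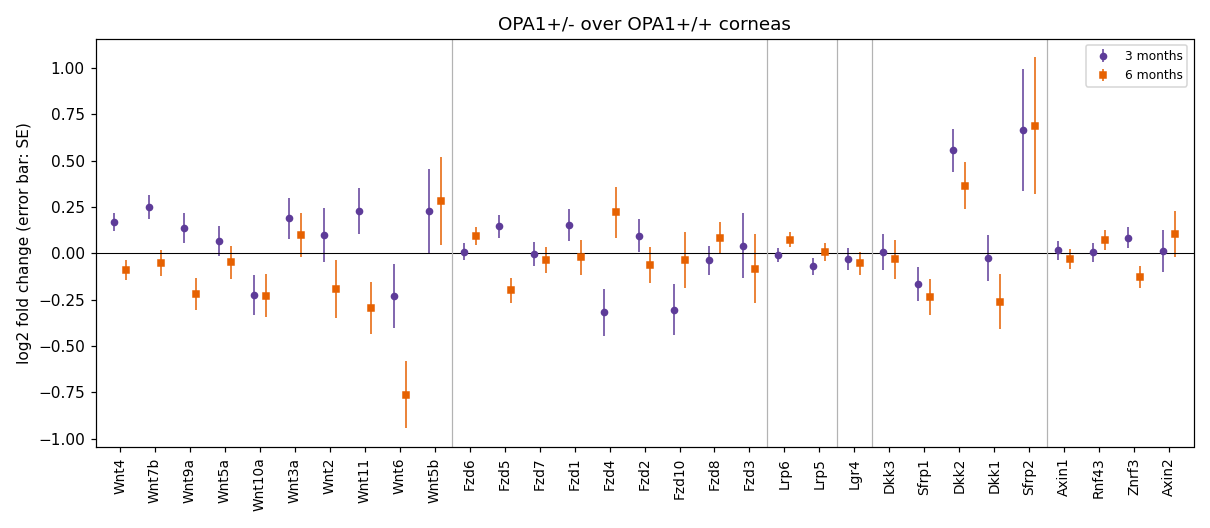
Log2 fold change of OPA1+/- over OPA1+/+ corneas at 3 and 6 months for each of the 31 genes; bars are SE. Dkk2 lies above 0 at both ages, at 0.56 and 0.37, and Wnt6 lies lowest at 6 months, at -0.76; no member passed at either age alone.

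The genotype difference was positive at 3 months and negative at 6 months for 6 of 10 ligands, positive at both ages for Wnt3a and Wnt5b, and negative at both for Wnt6 and Wnt10a, and no ligand passed the interaction test. At 3 months 8 of 10 ligands were higher in OPA1+/-, with a median log2 fold change of 0.15, and at 6 months 8 of 10 were lower, with a median of -0.14, while over all tested genes 50.9% were higher at 3 months and 50.7% at 6 months, with medians of 0.003 and 0.0024. With age, 9 of 10 ligands were lower at 6 months in OPA1+/- (median -0.12) and 7 of 10 higher in OPA1+/+ (median 0.12), where 49.8% of all genes were higher in OPA1+/- and 50.3% in OPA1+/+. For the interaction of genotype and age, 9 of 10 ligands were negative, with a median of -0.27 against -0.0023 over all genes, of which 49.4% were positive. No member passed for the interaction, nor did any gene (0%). At an unadjusted p under 0.05, 1 member was higher and 7 lower, and 5 of those 7 were ligands, against 6.91% of all genes, 3.01% higher and 3.91% lower. DESeq2 and limma voom called no member.

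Summed over the 10 ligands, the level was 131.1 ± 8.86 CPM per kilobase in OPA1+/- at 6 months (SD, n = 4), 143.5 ± 5.504 in OPA1+/- at 3 months (n = 4), 141.2 ± 4.23 in OPA1+/+ at 6 months (n = 3) and 130.2 ± 4.29 in OPA1+/+ at 3 months (n = 4). Ranges were separate between OPA1+/- and OPA1+/+ at 3 months (138.0 to 148.6 against 127.7 to 136.6) and overlapped at 6 months (122.5 to 142.8 against 137.9 to 146.0). Each of these 4 groups enters more than 1 comparison, so a low or high group shows in several of them. The Frizzled sums were closer, at 76.3 ± 2.94 in OPA1+/- at 6 months, 76.0 ± 1.51 in OPA1+/- at 3 months, 75.2 ± 2.43 in OPA1+/+ at 6 months and 75.7 ± 0.457 in OPA1+/+ at 3 months.

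Wnt4, Wnt7b, Wnt9a and Fzd5 had the smallest interaction p. For Wnt4 the 6 months values were 239, 209, 219 and 224 CPM in OPA1+/-, against 233, 229 and 248.8 CPM in OPA1+/+, and its interaction was -0.26 ± 0.07 (unadjusted p = 0.00188, adjusted p = 0.403). Wnt7b at 6 months was at 148, 129, 132 and 133 CPM in OPA1+/-, against 129, 141 and 152 CPM in OPA1+/+ (interaction -0.30 ± 0.09, adjusted p = 0.501). Wnt9a had an interaction of -0.36 ± 0.12 (adjusted p = 0.521), which was -0.12 ± 0.18 with the clock index as a covariate. For both leading ligands the genotypes overlapped at 6 months.

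Fzd5 was at 88.7, 77.0, 77.3 and 81.9 CPM in OPA1+/- at 6 months, against 87.1, 95.0 and 97.3 CPM in OPA1+/+ at 6 months, and at 93.6, 77.3, 96.1 and 90.03 CPM in OPA1+/- at 3 months, against 78.3, 83.3, 78.2 and 82.8 CPM in OPA1+/+ at 3 months. Genotypes overlapped at both ages, and its interaction was -0.34 ± 0.09 (unadjusted p = 0.00137, adjusted p = 0.367). In OPA1+/+, the 6 months libraries lay above all 3 months libraries for Fzd5 (0.21 ± 0.07, adjusted p = 0.257), Wnt4 (0.16 ± 0.05, adjusted p = 0.264) and Wnt7b (0.19 ± 0.07, adjusted p = 0.326), and those 6 months libraries are the ones with the low clock index.

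**Figure D5:**
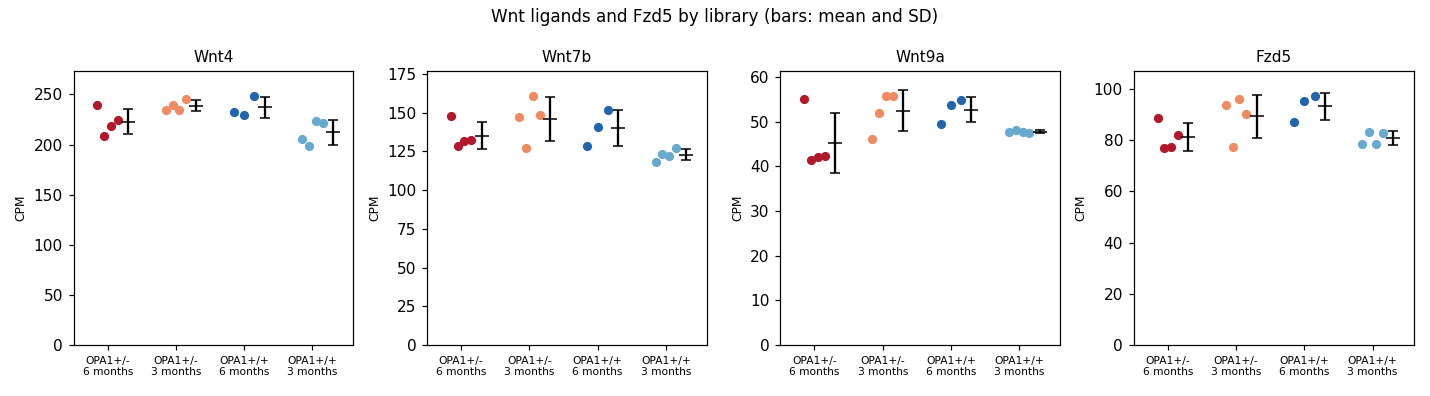
CPM by library of Wnt4, Wnt7b, Wnt9a and Fzd5 by group; points are libraries, and the bars beside them give the mean and SD. OPA1+/+ at 3 months is the group with the smallest spread for Wnt7b, Wnt9a and Fzd5, and 1 OPA1+/- library at 6 months stands apart for Wnt9a, at 55.2 CPM.

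Other genes of the pathway were followed in 4 lists with 92 genes, 81 of them tested and some in more than 1 list, and none passed in any of the 7 comparisons. At an unadjusted p under 0.05, 13 of the 81 were higher and 1 lower in OPA1+/- at 3 months (5.03% and 3.99% of all genes), and 4 were higher and 6 lower at 6 months (4.8% and 5.43% of all genes). With age, 2 were higher and 8 lower at 6 months in OPA1+/- (4.08% and 4.97% of all genes), and 9 higher and 4 lower in OPA1+/+ (5.32% and 4.84%). The interaction was positive for 3 and negative for 8 (3.01% and 3.91%). DESeq2 called Ephb3 at 6 months, Ascl2 and Ephb3 averaged over ages, and Tpbg with age averaged over genotypes, and limma voom called Ascl2 and Tpbg in those averaged comparisons. For OPA1+/- at 3 months, an unadjusted p under 0.05 held for 7 higher and 1 lower with DESeq2, and 14 higher and 2 lower with limma voom.

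Among the 16 tested genes of Wnt secretion and extracellular control, Wls, which carries Wnts to the cell surface, had 0.12 ± 0.03 averaged over ages (adjusted p = 0.113). It was at 151, 154, 158 and 152 CPM in OPA1+/- at 6 months, against 144, 144 and 138 CPM in OPA1+/+, and these did not overlap. Tpbg, a membrane protein that modifies Wnt signalling, had -0.38 ± 0.09 with age averaged over genotypes (adjusted p = 0.0636), the smallest adjusted p of the lists. At 6 months it was at 9.78, 8.83, 9.61 and 7.65 CPM in OPA1+/-, against 9.35, 11.5, 10.3 and 12.99 CPM at 3 months, which overlap. In OPA1+/+ it was at 10.5, 8.20 and 8.23 CPM at 6 months, against 12.98, 11.67, 13.5 and 11.1 CPM at 3 months, without overlap. Apcdd1, a membrane inhibitor of Wnt signalling, had -0.31 ± 0.10 with age in OPA1+/- (adjusted p = 0.325), and Lypd6, which enhances signalling at Lrp6, had 0.52 ± 0.19 in OPA1+/- at 3 months (adjusted p = 0.425).

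Among 14 tested targets of beta-catenin outside the members, Myc had the smallest p at 3 months (0.49 ± 0.12, adjusted p = 0.213) and Ascl2, a transcription factor of intestinal stem cells, the smallest averaged over ages (-0.62 ± 0.16, adjusted p = 0.0759). Ephb3, an ephrin receptor, had the smallest at 6 months (-0.13 ± 0.04, adjusted p = 0.164). Bambi, a pseudoreceptor of the TGF-beta family, had -0.50 ± 0.14 with age averaged over genotypes (adjusted p = 0.117). In the polarity list of 15 tested genes, Daam2, a formin downstream of Dishevelled, had -1.07 ± 0.28 at 6 months (adjusted p = 0.104), and Celsr2, a cadherin of planar polarity, 0.19 ± 0.05 with age in OPA1+/+ (adjusted p = 0.193). Prickle1, a cytoplasmic polarity protein, had 0.44 ± 0.14 in OPA1+/- at 3 months (adjusted p = 0.394), Ptk7, a Wnt co-receptor, -0.23 ± 0.09 with age in OPA1+/- (adjusted p = 0.485), and Vangl1, a membrane protein of planar polarity, an interaction of -0.27 ± 0.10 (adjusted p = 0.625). Of 42 tested genes of the cytoplasmic and nuclear pathway, Bcl9l, a co-activator of beta-catenin, had 0.12 ± 0.04 averaged over ages (adjusted p = 0.142). Tle4, a co-repressor of TCF factors, had 0.16 ± 0.05 at 6 months (adjusted p = 0.253), Dvl2, a Dishevelled protein, -0.19 ± 0.08 with age in OPA1+/+ (adjusted p = 0.400), Csnk1a1, a kinase that marks beta-catenin for removal, 0.07 ± 0.03 with age averaged (adjusted p = 0.304), and Siah1b, an E3 ligase, 0.48 ± 0.15 with age in OPA1+/- (adjusted p = 0.317).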

How the data were processed

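What the authors deposited is a raw read count for each gene and library. Per the labels' protocols, ribosomal RNA was depleted from total RNA, libraries were stranded, and single reads of 75 bases were sequenced. Counting on exons used featureCounts 2.0.1, per the file headers, with strand setting 2 and GENCODE mouse release 28. Per the submitters' processing notes, the build was mm10 and DESeq2 was used, whereas that release is on GRCm39; 1 of 31 members had the same start and end in release 21 on GRCm38, so no coordinates of the files are printed. The aligner and its settings are not given in the sources used here. Symbols from a name table matched 52081 of 55357 identifiers (94.1%).

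Groups came from the sample titles. CPM values are counts scaled to 1e6 of a library total adjusted by TMM factors, and errors after them are SD. Levels per kilobase divide CPM by the exon length in the files. Genes passing filterByExpr on the 4 groups (15770) entered 1 edgeR 4.0.16 quasi-likelihood model (R 4.3.3) with a mean per group over 15 libraries (11 residual degrees of freedom; common biological coefficient of variation 0.0884). Positive values mean higher in OPA1+/- or at 6 months. SE was taken as the absolute log2 fold change over the root of F. The procedure was tested on simulated counts drawn with the fitted dispersions, for the age comparison in OPA1+/- only. The other comparisons were not simulated.

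The members, pathway lists, marker lists and the naming rule were chosen with earlier results of these data known. The rule gives test values for members past the threshold in any comparison, the 4 members with the smallest p in each, Axin2, the 2 highest members of each role, and in each pathway list the gene with the smallest p where none passed. Each of this last set is printed once, in 1 of the comparisons where it was smallest; Kdr was named after its values were seen. Promoters came from RefSeq tables on GRCm38.p6, which matched 18 of 31 members. Alternatives were DESeq2 size factors, the DESeq2 1.42.0 Wald test, limma 3.58.1 voom with sample weights, no filter, a minimum mean of 1 CPM, a replicate block, only the groups compared, a clock covariate, leaving out libraries with retina transcripts (over 5 times the median), an adjusted p under 0.1, TPM for levels, and each library left out. The limit for a count of 0 is 3 counts and covers counting error only.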

Additional observations from a re-analysis of the deposited data

Results flagged for a closer look

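In groups of 4 libraries, a value was singled out when its gap to the nearest other library took up more of the group's range than Dixon's 95% critical value. This picked 5 of 93 groups (5.38%), and chance picks about 1 in 20. Wnt9a in OPA1+/- at 6 months had 55.2 CPM in replicate 1 and 41.4 to 42.4 CPM in the others. Dkk2 in OPA1+/- at 6 months had 40.45 CPM in replicate 4 and 53.3 to 54.6 CPM in the others. Wnt2 in OPA1+/- at 3 months had 7.87 CPM in replicate 2 and 10.7 to 11.1 CPM in the others. In OPA1+/+ at 3 months, replicate 1 had 13.65 CPM of Fzd2, against 11.55 to 11.82 CPM in the others, and 48.9 CPM of Axin1, against 55.2 to 55.6 CPM.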

How the results depend on the processing

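The number of members called kept to 0 for the interaction under each alternative run. For genotype at 3 months it was 1 with no filter (Wnt7b) and 1 with DESeq2 (Dkk2), and at 6 months 1 (Wnt6) with an adjusted p under 0.1, no filter, only the groups compared or DESeq2. For genotype averaged it was 2 (Wnt6, Dkk2) with an adjusted p under 0.1, no filter or DESeq2, and 0 with the clock covariate or without the retina libraries. With age in OPA1+/- it was 1 with the clock covariate (Wnt11) and 0 without the retina libraries, with age in OPA1+/+ 1 without the retina libraries (Dkk1), and with age averaged 0 with the clock covariate. Leaving out 1 library gave 0 to 0 at 3 months, 0 to 1 at 6 months, 0 to 2 averaged, 0 to 2 with age in OPA1+/-, 0 to 1 with age in OPA1+/+ and 1 to 2 with age averaged.

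Libraries with the same replicate number were hardly more alike than others. Deviations of the 21 same-numbered pairs correlated at -0.139 to 0.232 (median 0.012), and those of 63 other pairs at -0.182 to 0.263 (median 0.002). Such correlations cannot exclude a batch shared by number, which the labels do not name. With the replicate block, 0 members were called for genotype averaged (Dkk2 at 0.46, adjusted p = 0.0720), 0 with age in OPA1+/- (adjusted p = 0.0786 for Dkk1 and 0.105 for Wnt11) and 1 with age averaged (Dkk1, while Wnt11 had adjusted p = 0.0990), and Opa1 at 3 months had -0.41 (adjusted p = 0.0514). Opa1 at 3 months also lost its call with only the groups compared (-0.42) and without the retina libraries (-0.41), with -0.48 to -0.37 when 1 library was left out. At 6 months it had -0.61 ± 0.15 with the clock covariate (adjusted p = 1.00) and -0.56 to -0.49 when 1 library was left out.

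Of 1155 values of named members under alternatives, 1086 kept direction and side of the threshold, 46 lost the call, 13 gained it and 10 changed sign. Those that changed sign were not called: with the clock covariate Wnt9a at 6 months (0.057), Sfrp1 averaged (0.024) and Wnt11 with age in OPA1+/+ (0.026); without the retina libraries the Dkk1 interaction (0.017) and Dkk2 with age averaged (0.018); and Dkk1 at 3 months with limma voom (0.013). With 1 library left out, Dkk1 at 3 months ran from -0.10 to 0.0055, Wnt11 with genotype averaged from -0.091 to 0.044, Dkk2 with age averaged from -0.12 to 0.0012 and Dkk2 with age in OPA1+/+ from -0.090 to 0.15. The causes were not tested. Ranks of levels were the same with TPM for 31 of 31 members. TPM uses the same counts and exon lengths, so it could hardly change the order, and other exon lengths were not tried. Depth limits Sfrp2, Wnt5b, Fzd3 and Wnt6, which averaged 10.5, 32.7, 56.9 and 62.6 counts per library.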
